A study of Mus musculus with 15 samples.

Results

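Matrix metalloproteinases (Mmp), the ADAM and ADAMTS proteases and their tissue inhibitors (Timp) were followed in 2 mouse cell lines before and during dexamethasone treatment. Members were all gene symbols of the array annotation that begin with Mmp, Adam or Adamts and a number, or are Timp1 to Timp4, and that have at least 3 exon probesets assigned to exactly 1 gene. The rule found 65 symbols. Adam38 and Adam6 had 2 probesets each and were left out, and the remaining 63 genes, of 15041 with at least 3 probesets, comprised 25 Adam, 13 Adamts, 21 Mmp and 4 Timp genes. The rule used no measured value.

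RNA was measured on 15 one-colour Affymetrix mouse exon arrays, which carry several short probesets along each gene. The 3134 line was made by transforming C127 cells, which came from a mammary adenocarcinoma of an RIII mouse, and AtT-20 is a pituitary corticotroph line of LAF1 origin. Both were moved to charcoal-stripped serum and then given 100 nM dexamethasone, a synthetic glucocorticoid, for 2, 4 or 8 h, or sampled at 0 h. Each line and time had 2 arrays, one from each of 2 runs of serial numbers within that line, except AtT-20 at 8 h with 1 array of the first run. The labels do not say that a run of 3134 and a run of AtT-20 belong together. The labels call the 0 h cells both untreated and vehicle treated. No array was made from cells kept 2 to 8 h without dexamethasone, so hormone and time in culture cannot be told apart. The labels do not say that the arrays of a group came from separate cultures, so p-values measure the spread between arrays, which may be technical.

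These proteases are zinc enzymes that are made as inactive precursors. Secreted Mmp proteins cut collagens and other matrix proteins, membrane-type Mmp proteins do so at the cell surface, ADAM proteins release the outer parts of membrane proteins or act in cell adhesion, and ADAMTS proteins process procollagens and proteoglycans. TIMP proteins block their active sites. Several secreted Mmp genes are driven by the transcription factor AP-1, and their repression by the glucocorticoid receptor is a textbook case of hormone action against AP-1.

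A gene's value was the median of its probesets on the log2 scale after the 15 arrays had been quantile normalized. A gene was tested where at least 1 of the 8 group means reached log2 6.59, the 40th percentile of all probeset values, below which signal is close to background. That level was met by 23 members, and 9927 genes were tested in all. Values of different genes are not compared here, because probesets differ in brightness. The cells were checked against marker genes. All 6 corticotroph markers reached the level in AtT-20 at 0 h (Pomc 13.23) and 0 of 6 did in 3134. In 3134, 7 of 8 mesenchymal markers did so (Vim 13.22) but only 2 of 7 epithelial ones, Krt8 at 6.77 and Krt14 at 7.03, while Epcam was at 4.32 and Cdh1 at 5.73, so its markers go against a mammary epithelial identity and the line is called 3134 here. In bulk RNA, fewer cells of a type and less RNA per cell cannot be told apart.

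The level was reached in neither line by 40 of the 63 members, in both lines by 8, only in 3134 by 9 and only in AtT-20 by 6. A line was counted if its group mean reached the level at any time, with or without hormone. The members at or above it in both lines were Adam9, Adam10, Adam15, Adamts2, Adamts4, Adamts10, Mmp28 and Timp3. Those at or above it only in 3134 were Adam8, Adamts1, Adamts7, Mmp2, Mmp11, Mmp14, Mmp19, Timp1 and Timp2. Those at or above it only in AtT-20 were Adam22, Adam23, Mmp16, Mmp17, Mmp23 and Mmp24.

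**Figure D1:**
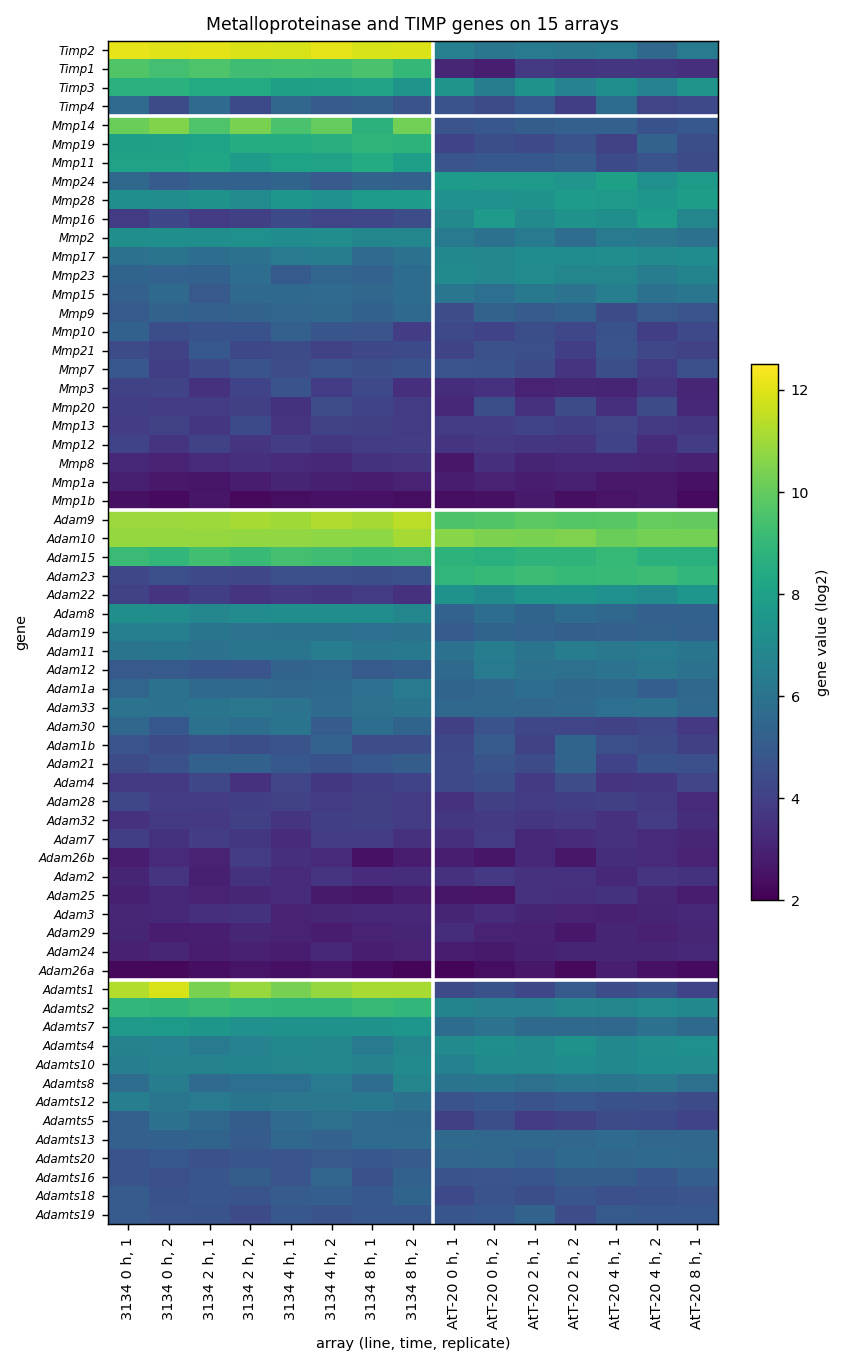
Gene values (log2, colour) of the 63 members (rows, by family) on the 15 arrays (columns). Timp1, Timp2, Mmp14 and Adamts1 are bright only in the 3134 columns, Adam22 and Adam23 only in the AtT-20 columns, and most rows stay dark throughout.

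The secreted Mmp genes on chromosome 9 stayed at background in both lines. Mmp13, Mmp12, Mmp1b, Mmp3, Mmp1a, Mmp10, Mmp8, Mmp20 and Mmp7 lie next to each other there, within 5 gene steps of a neighbour, and encode collagenases, stromelysins, macrophage elastase, enamelysin and matrilysin. Every group mean of the 9 genes lay between 2.31 and 5.01 at every time, and 0 of the 9 were tested. Mmp13, a collagenase, was at 3.92 and 4.09 on the 3134 arrays at 0 h and at 3.97 and 3.85 at 8 h. Mmp3, stromelysin 1, was at 4.04 and 4.17 at 0 h and at 4.31 and 3.41 at 8 h. A fall of these genes with hormone could therefore not have been seen here, whatever the hormone does to them. Mmp1a and Mmp1b are related genes, as are Adam1a with Adam1b and Adam26a with Adam26b. Whether probesets of such pairs share signal was not tested.

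The promoters of this cluster are shown because AP-1 sites in such promoters are a known point of glucocorticoid action on collagenase genes. The 100 bases before each start, read 5′ to 3′ on the gene's strand, are given from RefSeq (build GRCm38.p6), with AP-1 motifs (TGANTCA) and TATA boxes (TATAAA) in capitals. For Mmp12 and Mmp7, which have a second listed start with neither motif, the start with the AP-1 motif is shown.
Mmp13, chr9:7272414-7272513, plus strand: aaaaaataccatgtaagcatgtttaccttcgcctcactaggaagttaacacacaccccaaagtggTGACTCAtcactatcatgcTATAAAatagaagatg
Mmp12, chr9:7347274-7347373, plus strand: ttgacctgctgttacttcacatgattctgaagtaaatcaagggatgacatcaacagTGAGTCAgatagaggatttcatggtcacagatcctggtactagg
Mmp1b, chr9:7388027-7388126, minus strand: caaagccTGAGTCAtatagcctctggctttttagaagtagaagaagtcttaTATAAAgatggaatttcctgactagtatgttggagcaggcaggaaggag
Mmp3, chr9:7445722-7445821, plus strand: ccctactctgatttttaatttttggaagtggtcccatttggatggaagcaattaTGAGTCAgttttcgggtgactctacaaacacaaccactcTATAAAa
Mmp1a, chr9:7464041-7464140, plus strand: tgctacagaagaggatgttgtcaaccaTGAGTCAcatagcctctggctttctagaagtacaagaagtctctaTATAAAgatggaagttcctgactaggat
Mmp10, chr9:7502242-7502341, plus strand: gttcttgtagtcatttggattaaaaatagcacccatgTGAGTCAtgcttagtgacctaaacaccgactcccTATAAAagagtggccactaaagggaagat
Mmp8, chr9:7558329-7558428, plus strand: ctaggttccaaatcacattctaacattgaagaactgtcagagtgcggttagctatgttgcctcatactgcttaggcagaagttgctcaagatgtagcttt
Mmp20, chr9:7628131-7628230, plus strand: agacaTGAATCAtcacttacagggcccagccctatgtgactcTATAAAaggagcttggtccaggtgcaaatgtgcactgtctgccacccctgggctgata
Mmp7, chr9:7691990-7692089, plus strand: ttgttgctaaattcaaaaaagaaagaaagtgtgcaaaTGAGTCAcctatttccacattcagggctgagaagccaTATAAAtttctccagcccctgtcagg
An AP-1 motif lay in 8 of these 9 promoters, all but Mmp8, with its first base between positions -95 (Mmp20) and -35 (Mmp13) from the start. Its letters were TGACTCA in Mmp13, TGAATCA in Mmp20 and TGAGTCA in the other 6.

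Promoter windows of 300 bases, from 250 before to 50 after the start, were given for 38 of the 63 members, with 43 starts. On either strand, the AP-1 motif was in 12 of the 43 windows, 27.9%, against 7.81% of all 32851 windows, and the other 4 were those of Adam19, Adam1b, Adam25 and Adam29. The TATA box was in 12 of 43, 27.9%, against 13.6% of all windows. The glucocorticoid receptor palindrome, 2 copies of G, any base and ACA that face each other across 3 bases, was in 0 of 43, against 0.475% of all windows. These are matches of letters in short windows and say nothing of binding.

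Before hormone, 18 of the 23 tested members differed between the lines, 12 higher and 6 lower in 3134 (limma, adjusted p under 0.05). Of all tested genes, 54.5% differed, 24.3% higher and 30.2% lower, so a difference between these lines is common. The median difference of the 23 members was 1.10, against -0.10 over all tested genes. All 9 members at the level only in 3134 and all 6 only in AtT-20 were among the 18. These were tested through the line where they are high, so the filter itself favours a difference for them. Of the 8 members at the level in both lines at some time, Adam9, Adamts2 and Timp3 passed. With the run as a block, 20 of 23 members passed (66.9% of all genes). Where groups of arrays are said below not to overlap, the share of all genes for which that holds was not counted. The inhibitors Timp1 and Timp2, the membrane-type protease Mmp14 and the proteoglycan-cutting protease Adamts1 were high in 3134 and below the level in AtT-20. The inhibitor Timp3 was at the level in both lines. The members at the level only in AtT-20 were the neural ADAM proteins and a different set of membrane-bound Mmp proteins.

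**Figure D2:**
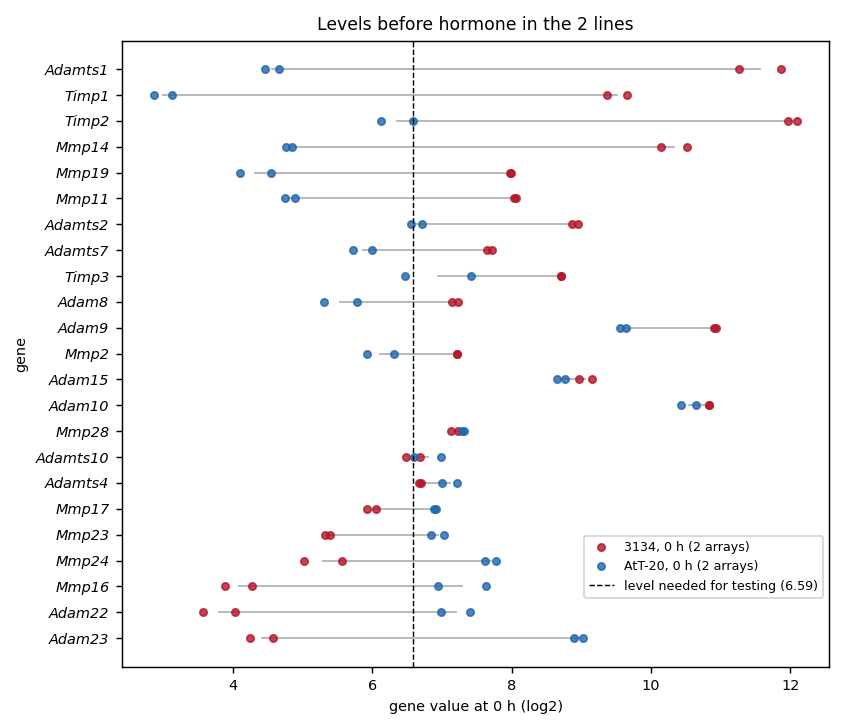
Gene values at 0 h (log2, x axis) of the 23 tested members, 2 arrays per line as points, with a grey line between the means of the lines and a dashed line at the level needed for testing. Genes from Adamts1 to Mmp2 at the top are higher in 3134, those from Mmp17 downwards are higher in AtT-20, and Adam15 to Adamts4 lie close together.

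All 3 tested Timp genes were higher in 3134. Timp2, which also takes part in activating pro-Mmp2 at the cell surface, was at 12.10 and 11.97 in 3134 and at 6.58 and 6.13 in AtT-20, a difference of 5.68 ± 0.238 (SE, limma adjusted p = 1.93e-09). Timp1 was at 9.66 and 9.37 in 3134 and at 3.13 and 2.87 in AtT-20 (6.51 ± 0.201, limma adjusted p = 2.48e-10). The lines did not overlap for either gene, and both lay below the level in AtT-20, so background limits the size of these differences, as it does for every member at the level in only 1 line. Timp3, the inhibitor that stays bound to the matrix and also blocks ADAM proteases, was at 8.71 on both 3134 arrays and at 7.42 and 6.47 in AtT-20 (1.76 ± 0.337, limma adjusted p = 0.000791). The AtT-20 arrays of the second run were lower for Timp3 at every time they cover. Timp4 was tested in neither line, with array values between 3.95 and 5.73. Timp1, Timp3 and Timp4 lie within or across synapsin genes, and the overlapping Syn1 was at 8.91 in AtT-20 and 5.36 in 3134, the opposite order to Timp1.

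Among the Mmp genes that passed, the secreted Mmp2, Mmp11 and Mmp19 were higher in 3134, and membrane-bound members stood on both sides. Mmp14, the membrane-type enzyme that activates pro-Mmp2, was at 10.14 and 10.52 in 3134 and at 4.76 and 4.85 in AtT-20 (5.53 ± 0.417, limma adjusted p = 2.65e-07). The secreted Mmp19 was at 7.97 and 7.99 in 3134 and at 4.10 and 4.54 in AtT-20 (3.66 ± 0.327, adjusted p = 1.25e-06, limma). Mmp11, stromelysin 3, was at 8.03 and 8.07 against 4.75 and 4.89, and Mmp2, gelatinase A, at 7.21 on both arrays against 6.31 and 5.92. These 4 genes did not overlap between the lines, and Mmp2 had the smallest difference of the 12 higher members (1.10 ± 0.195, limma adjusted p = 0.00046). In the other direction stood 3 membrane-type genes and Mmp23. Mmp16, which like Mmp14 spans the membrane, was at 3.88 and 4.28 in 3134 and at 6.94 and 7.63 in AtT-20 (-3.21 ± 0.263, limma adjusted p = 5.62e-07). Mmp24, a membrane-type enzyme known from neurons, was at 5.56 and 5.02 against 7.78 and 7.62 (-2.41 ± 0.249, limma adjusted p = 4.67e-06). Mmp17, held by a lipid anchor, and Mmp23 had smaller differences of -0.90 ± 0.151 and -1.58 ± 0.226. The membrane-type genes were thus split, with Mmp14 at the level only in 3134 and Mmp16, Mmp17 and Mmp24 only in AtT-20. Mib2, which overlaps Mmp23, was at 8.93 in AtT-20 and 7.20 in 3134. Mmp28, epilysin, did not pass (-0.12 ± 0.179, limma adjusted p = 0.593, 95% interval -0.52 to 0.27).

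Of the ADAM genes, Adam9, Adam10 and Adam15 were at the level in both lines. The sheddase gene Adam17 was not among the symbols that the rule found, so it has no value here. Adam10, which cuts Notch receptors, was at 10.84 on both 3134 arrays and at 10.65 and 10.43 in AtT-20, and the difference did not pass (0.30 ± 0.166, limma adjusted p = 0.146, 95% interval -0.06 to 0.67). Adam9 was at 10.91 and 10.93 against 9.55 and 9.64 (1.33 ± 0.169, limma adjusted p = 2.84e-05). Adam15 was at 9.15 and 8.97 against 8.77 and 8.65, a difference of 0.35 ± 0.163 that passed only with the run as a block (limma adjusted p = 0.0895 without it and 0.0342 with it). All 3 had both 3134 arrays above both AtT-20 arrays, but 2 against 2 arrays can separate without a real difference. Adam8, known from leukocytes and tumours, was higher in 3134 (1.65 ± 0.214, limma adjusted p = 3.51e-05), where 1 of 6 macrophage and leukocyte markers reached the level (Cd68), and Ptprc was at 3.71. The part of such cells in this result was not tested.

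The opposite order was found for Adam22 and Adam23, ADAM proteins without protease activity that bind the secreted LGI proteins at synapses. Adam23 was at 4.25 and 4.58 in 3134 and at 8.90 and 9.03 in AtT-20 (-4.55 ± 0.158, limma adjusted p = 5.23e-10). Adam22 was at 4.03 and 3.57 against 7.40 and 6.99 (-3.40 ± 0.221, limma adjusted p = 7.11e-08). Both were below the level on every 3134 array. Lgi1, a ligand of both, was also higher in AtT-20 (-5.51 ± 0.218, limma adjusted p = 1.27e-09).

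The ADAMTS genes at the level were mostly higher in 3134. Adamts1, which cuts aggrecan and versican, was at 11.27 and 11.87 in 3134 and at 4.46 and 4.66 in AtT-20, near background, which limits the size of the difference (7.01 ± 0.281, limma adjusted p = 1.42e-09). Adamts2, which removes the amino-terminal propeptide of fibrillar procollagens, was at 8.96 and 8.87 against 6.72 and 6.56 (2.27 ± 0.168, limma adjusted p = 2.15e-07). Adamts7, which cuts the cartilage protein Comp, was at 7.64 and 7.72 against 5.72 and 6 (1.82 ± 0.178, limma adjusted p = 2.9e-06). The lines did not overlap for any of the 3. Adamts4, another aggrecanase, passed only with the run as a block and in the other direction (-0.42 ± 0.209, limma adjusted p = 0.107 without it and 0.0306 with it). Adamts10 overlapped between the lines (-0.22 ± 0.179, limma adjusted p = 0.335). Adamts5, the neighbour of Adamts1 on chromosome 16, was below the level in every group, at 5.24 and 5.93 in 3134 and at 4.00 and 4.54 in AtT-20.

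Probesets of a gene can differ unequally between lines. This was tested (limma diffSplice, Simes test) for genes at the level in both lines at 0 h, which made 7 members eligible. Adamts10, at 6.58 in 3134 at 0 h, was not eligible. The 7 members passed in 3 cases, against 20.7% of 7623 genes. The 3 were Adamts2 (adjusted p = 3.96e-09), Adam9 (adjusted p = 0.00639) and Adam10 (adjusted p = 0.00941), all from limma. In Adamts2, 23 of 24 probesets were higher in 3134, and their differences ran from -0.58 to 3.28. The lowest came from a probeset near background, at 6.25 and 6.34 in 3134 and at 6.33 and 7.42 in AtT-20. The next lowest, 0.11, came from a bright probeset, at 8.69 and 8.70 in 3134 and at 8.42 and 8.75 in AtT-20. The gene value of Adamts2 in AtT-20 at 0 h, 6.64, was just above the level, which 12 of its 24 probesets reached there. Background therefore limits the differences of the remaining probesets. In Adam10, the highest difference, 1.55, belonged to 1 probeset at 9.58 and 9.87 in 3134 and at 8.70 and 7.66 in AtT-20, while the median was 0.31. Timp3 passed only with the run as a block (limma adjusted p = 0.133 without it and 0.00211 with it, against 49.5% of all genes with it). Without 1 of 3 arrays (either 3134 array at 0 h, or the second AtT-20 array) 1 of these members passed instead of 3. Positions of the probesets within the genes were not used here.

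**Figure D3:**
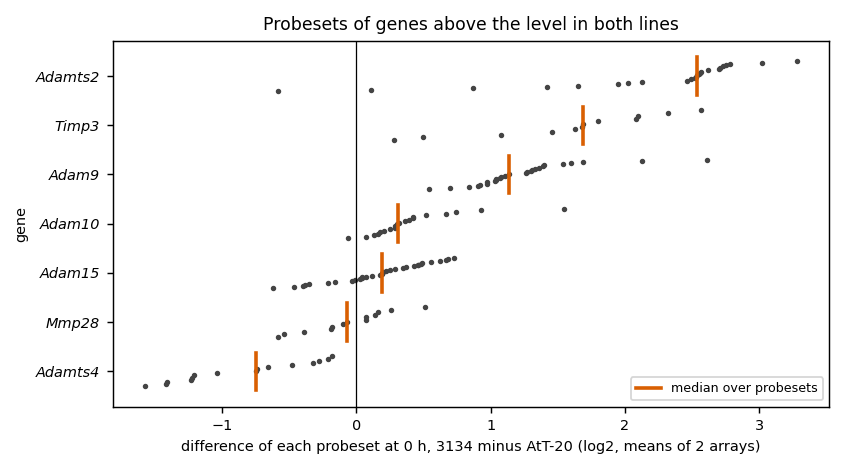
Difference between the lines at 0 h (log2, x axis, 3134 minus AtT-20) for each probeset (points, sorted) of the 7 members eligible for the exon test, with the median as an orange bar. Adamts2 spans from -0.58 to 3.28, and all 15 probesets of Adamts4 lie below 0.

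The second question was how these genes moved with dexamethasone. No tested member passed at any time in either line by the test without a run block: 0 of 23 in 3134 at 2, 4 and 8 h (1.22%, 1.91% and 2.19% of all genes did) and 0 of 23 in AtT-20 (0.0907%, 0.171% and 0.121%). An unadjusted p under 0.05 was reached by 1, 2 and 3 members in 3134 and by 1 at each time in AtT-20. Samples of the same run deviated together, so the run was also fitted as a block, and then 1, 2 and 3 members passed in 3134 at 2, 4 and 8 h (2.98%, 5.17% and 7.88% of all genes) and 0 in AtT-20 at any single time (0.322%, 0.866% and 0.443%). With counts this small, the members' shares lie near those of all genes. The members that passed with the block were Adamts1, Timp3, Mmp19 and Mmp28, all with changes below 1 on the log2 scale. Comparisons of times share the 0 h arrays of the line.

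**Figure D4:**
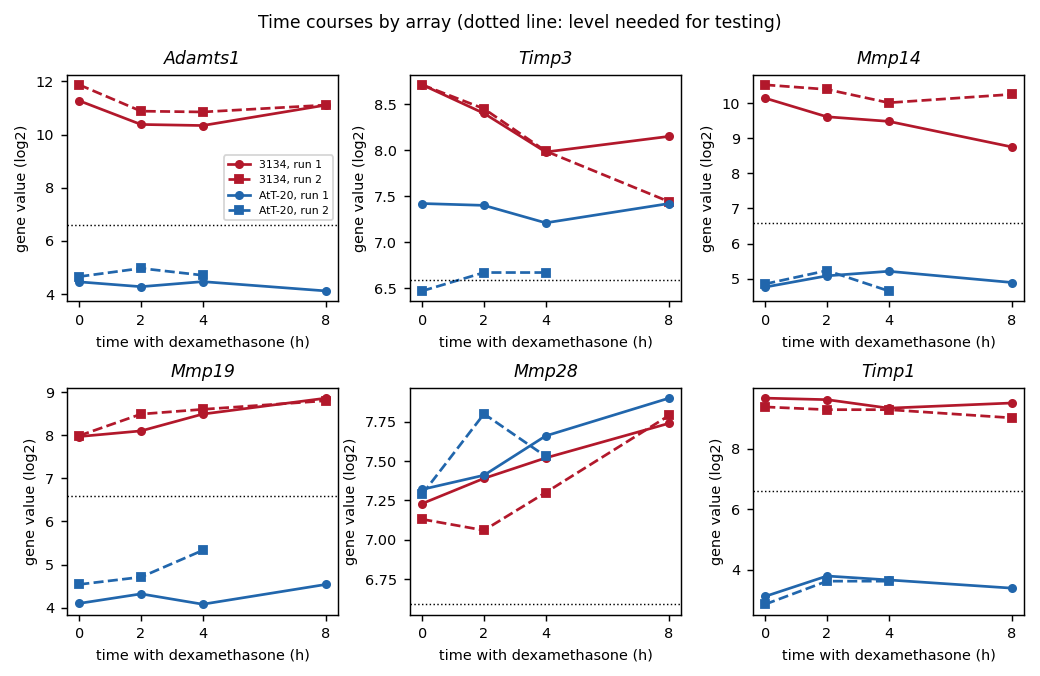
Gene values (log2, y axis, a different range in each panel) against hours of dexamethasone for 6 members, red for 3134 and blue for AtT-20, solid lines with circles for the first run and dashed lines with squares for the second. In 3134, Adamts1 lies lower at 2 and 4 h and is closer to its start at 8 h, Timp3 goes down and Mmp19 up in both runs, and Mmp14 differs between the runs at 8 h.

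Adamts1 was lower at 2 and 4 h in both runs of 3134 and nearer to its start at 8 h. Its values were 11.27 and 11.87 at 0 h, 10.38 and 10.88 at 2 h, 10.34 and 10.85 at 4 h and 11.11 on both arrays at 8 h. No treated array reached the lower 0 h array. With the run as a block it fell by 0.94 at 2 h, to 0.521 of the 0 h level (SE 0.172, limma adjusted p = 0.00804, and 0.257 without the block), and by 0.97 at 4 h (SE 0.172, limma adjusted p = 0.00458, and 0.157 without it). At 8 h the difference was -0.46 and did not pass (limma adjusted p = 0.136 with the block). All 17 probesets of the gene were lower in both runs as the mean of 2 and 4 h, by 0.47 to 1.26. Probesets of 1 gene share the same arrays, so such counts, here and below, are not replicates and add no test. In AtT-20, where the gene is near background, the values stayed between 4.12 and 4.97. Left-out arrays mattered: without the second 0 h array the limma adjusted p was 0.14 at 2 h and 0.0921 at 4 h, without the first 2 h array 0.126, without the second 2 h array 0.0638 and without the first 4 h array 0.0789, whereas it was 0.0367 and 0.0225 without the first 0 h array and 0.0379 at 4 h without the second 4 h array. The 250 bases before the Adamts1 start are shown because the gene was the member that passed at 2 h, and they hold a TATA box, in capitals, at position -32, and neither of the other motifs.
Adamts1, chr16:85803114-85803363, minus strand: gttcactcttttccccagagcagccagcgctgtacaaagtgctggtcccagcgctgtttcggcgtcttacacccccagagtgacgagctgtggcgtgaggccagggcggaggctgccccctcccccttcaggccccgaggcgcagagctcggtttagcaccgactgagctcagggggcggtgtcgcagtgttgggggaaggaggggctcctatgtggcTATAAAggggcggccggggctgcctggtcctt

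The inhibitor Timp3 was lower at 4 and 8 h in 3134. Both 0 h arrays were at 8.71, the 2 h arrays at 8.40 and 8.45, the 4 h arrays at 7.98 and 7.99 and the 8 h arrays at 8.15 and 7.44. All treated arrays lay below both 0 h arrays, and the 2 runs parted only at 8 h. With the run as a block it fell by 0.73 at 4 h (SE 0.186, limma adjusted p = 0.0417, and 0.609 without the block) and by 0.92 at 8 h (SE 0.186, limma adjusted p = 0.00979, and 0.279 without it), the latter to 0.53 of the 0 h level. The difference at 2 h was -0.29 (limma adjusted p = 0.775 with the block). As the mean of 2 and 4 h, 11 of 12 probesets were lower in both runs. The call at 4 h was lost on leaving out any 1 of its 4 arrays (limma adjusted p from 0.128 to 0.344), and that at 8 h without the second 0 h array (0.118) or the second 8 h array (0.13). In AtT-20 the first run stayed between 7.21 and 7.42 and the second between 6.47 and 6.67. The difference between the lines in the mean response at 2 and 4 h did not pass (-0.55 ± 0.413, limma adjusted p = 1, and 0.344 with the block).

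Timp3 and Timp1 promoters are shown with that of Mmp28 because these are the members, beside Adamts1, that passed a test over time and have a window. None of the 3 holds any of the motifs searched, so no letters are in capitals.
Timp3, chr10:86300162-86300411, plus strand: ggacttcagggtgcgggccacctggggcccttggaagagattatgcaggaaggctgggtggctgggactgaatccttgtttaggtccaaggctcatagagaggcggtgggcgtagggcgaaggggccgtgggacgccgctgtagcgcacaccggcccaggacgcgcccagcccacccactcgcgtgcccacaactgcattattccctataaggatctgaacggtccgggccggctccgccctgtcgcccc
Timp1, chrX:20869916-20870165, plus strand: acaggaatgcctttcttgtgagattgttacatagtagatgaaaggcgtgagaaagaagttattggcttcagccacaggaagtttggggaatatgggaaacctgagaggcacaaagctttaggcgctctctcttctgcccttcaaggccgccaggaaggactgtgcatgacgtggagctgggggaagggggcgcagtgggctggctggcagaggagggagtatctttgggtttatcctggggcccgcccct
Mmp28, chr11:83463041-83463290, minus strand: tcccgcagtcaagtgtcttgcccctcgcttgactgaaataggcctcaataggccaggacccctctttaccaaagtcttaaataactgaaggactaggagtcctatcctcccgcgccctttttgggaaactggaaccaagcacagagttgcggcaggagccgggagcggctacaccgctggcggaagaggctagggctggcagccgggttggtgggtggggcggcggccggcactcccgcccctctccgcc
Mmp19 has no window in the table.

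The secreted Mmp19 and Mmp28 were higher at 8 h in 3134. Mmp19 was at 7.97 and 7.99 at 0 h, 8.10 and 8.49 at 2 h, 8.49 and 8.60 after 4 h and 8.86 and 8.80 after 8 h. Every treated array was above both 0 h arrays. It rose by 0.85 at 8 h with the run as a block (1.8-fold, SE 0.194, limma adjusted p = 0.0197, and 0.309 without the block), and 9 of its 12 probesets were higher in both runs at 2 and 4 h. The call was lost without any 1 of its 4 arrays (limma adjusted p from 0.0631 to 0.153). Mmp28 was at 7.23 and 7.13 at 0 h, 7.39 and 7.06 at 2 h, 7.52 and 7.30 after 4 h and 7.74 and 7.79 after 8 h. Its 8 h arrays were above all earlier ones, and it rose by 0.59 with the block (1.5-fold, SE 0.154, limma adjusted p = 0.0364, and 0.155 without it). That call too was lost without any 1 of its arrays (limma adjusted p from 0.0574 to 0.273). On the scale as deposited, the rises were 0.48 and 0.29 and did not pass with the block (limma adjusted p = 0.198 and 0.428). In AtT-20, where Mmp28 is at the level, it was at 7.32 and 7.29 at 0 h, 7.41 and 7.80 at 2 h, 7.66 and 7.53 at 4 h and 7.90 on the 8 h array. All treated AtT-20 arrays lay above both 0 h arrays, and no difference passed (at 8 h 0.59 ± 0.22, limma adjusted p = 0.999, and 0.429 with the block).

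Mmp14 did not pass. It was at 10.14 and 10.52 at 0 h, 9.61 and 10.39 at 2 h, 9.48 and 10.01 after 4 h and 8.75 and 10.25 after 8 h in 3134. The 4 h arrays lay below both 0 h arrays, and at 2 and 8 h the groups overlapped. At 8 h the first run differed from its 0 h array by -1.39 and the second by -0.27 (together -0.83 ± 0.417, limma adjusted p = 0.502, and 0.0559 with the block). All 13 probesets were lower in both runs as the mean of 2 and 4 h, by 0.30 to 0.62. These probesets share the same arrays and are not replicates. Timp1, which did not pass in 3134 either, also had every probeset below 0 in that mean, from -0.16 to -0.04.

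No other member at the level in 3134 passed at any time. Over the 8 arrays Mmp11 ran from 7.75 to 8.45, Timp1 from 9.01 to 9.66 and Adamts4 from 6.32 to 6.91, ranges about as wide as that of Mmp28. Adam10 ran from 10.70 to 11.07, Adam15 from 8.97 to 9.42, Adam8 from 6.83 to 7.23, Adamts2 from 8.85 to 9.12 and Timp2 from 11.88 to 12.10. Adam9 was above both 0 h arrays on all 6 treated arrays, at up to 11.41, with a difference of 0.32 ± 0.169 at 8 h (limma adjusted p = 0.523, and 0.189 with the block). Mmp2 was lower on both 8 h arrays, at 6.80 and 6.82 against 7.21 at 0 h, a difference of -0.40 ± 0.195 (limma adjusted p = 0.476, and 0.101 with the block). Adamts7 was below both 0 h arrays on all treated arrays, with a difference of -0.32 ± 0.178 at 4 h (limma adjusted p = 0.741, and 0.288 with the block), and 27 of its 35 probesets were lower in both runs. Over the 23 members, differences in 3134 ran from -0.94 to 0.31 at 2 h, from -0.97 to 0.56 at 4 h and from -0.92 to 0.85 at 8 h, with medians of -0.05, -0.05 and 0. Adam19, a sheddase of neuregulins, had its highest group mean, 6.53 in 3134 at 0 h, just below the level and was not tested. Its arrays were at 6.52 and 6.55 at 0 h and between 5.83 and 6.10 at all later times in 3134.

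**Figure D5:**
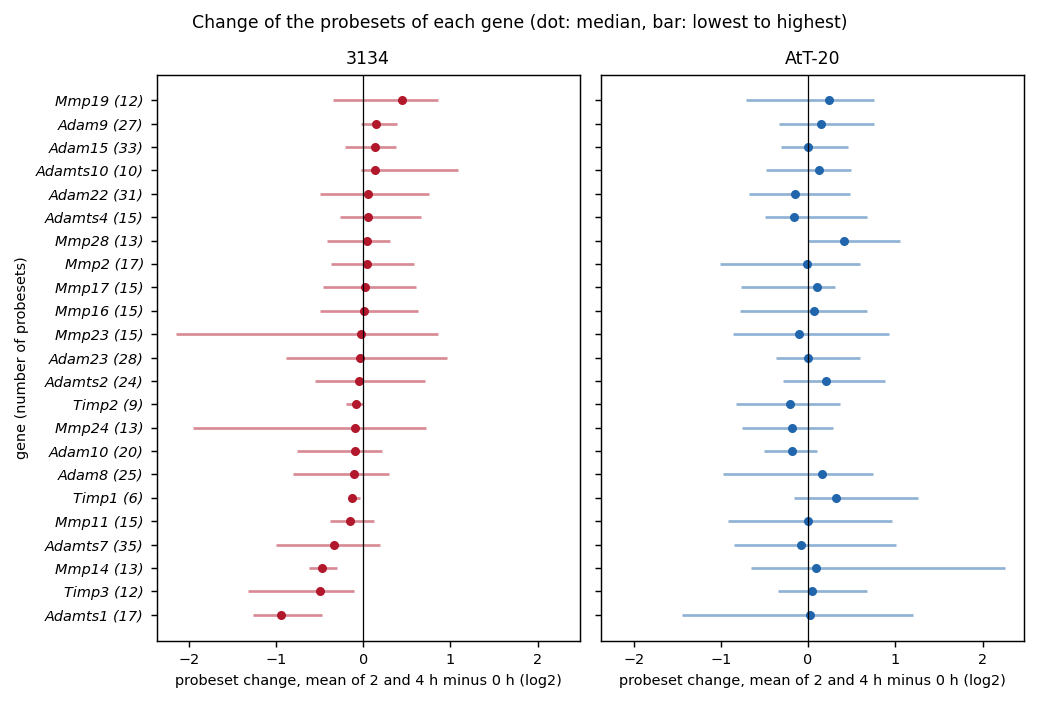
Change of the probesets of each tested member, mean of 2 and 4 h minus 0 h (log2, x axis), with the median as a dot and a bar from the lowest to the highest probeset, for 3134 (left) and AtT-20 (right). In 3134 the whole bars of Adamts1, Timp3, Mmp14 and Timp1 lie below 0, that of Timp1 close to it (-0.16 to -0.04).

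In AtT-20, the mean of 2 and 4 h passed for 1 of 23 members with the run as a block (0.766% of all genes) and for 0 without it (0.181%, with 1 member at an unadjusted p under 0.05). That member was Timp1, whose 0 h arrays were at 3.13 and 2.87, 2 h arrays at 3.80 and 3.63, 4 h arrays at 3.67 and 3.63 and 8 h array at 3.40. The treated arrays were above both 0 h arrays, but all lay far below 6.59, where a signal is not resolved from background. Timp1 was among the tested genes through its level in 3134 alone, so this pass does not show a change in AtT-20. The difference was 0.68 ± 0.12 with the block (limma adjusted p = 0.02, and 0.434 without it), and 3 of its 6 probesets were higher in both runs. Without 1 array the call was kept only on leaving out the first 4 h array (limma adjusted p = 0.042) and was otherwise between 0.0704 and 0.359, and on the deposited scale with the block it was lost (limma adjusted p = 0.563). Adam22, Adam23, Mmp16 and Mmp24, 4 of the 6 members at the level only in AtT-20, ranged from 6.99 to 7.53, 8.90 to 9.20, 6.82 to 7.81 and 7.26 to 7.96 over its 7 arrays.

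A test of the 3134 response against the AtT-20 response, as the mean of 2 and 4 h, passed for 0 of 23 members without the block (0.645% of all genes, 2 members at an unadjusted p under 0.05) and for 2 with it (2.79%). These were Adamts1 (-1.01 ± 0.211 with the block, limma adjusted p = 0.0225) and Timp1 (-0.82 ± 0.169, limma adjusted p = 0.0209). Both genes were tested through their level in 3134 alone and are near background in AtT-20, so these values do not show that the lines respond differently. For Timp1 most of the value, 0.68, came from AtT-20, and on the deposited scale it did not pass (limma adjusted p = 0.121 with the block).

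Genes that act with these proteases differed between the lines as well, to be read against the 24.3% higher and 30.2% lower in 3134 among all tested genes. They were tested by the same filter, which favours a difference for any gene at the level in only 1 line. Background limits the size of such a difference. Of 20 tested matrix substrates, 16 were higher and 3 lower in 3134 at 0 h, with a median difference of 3.51, and of 19 shed membrane proteins 13 were higher and 3 lower (median 2.78). Fn1, fibronectin, had a difference of 8.44 ± 0.197 (limma adjusted p = 4.65e-11). Its means at 0 h were 13.12 in 3134 and 4.68, below the level, in AtT-20. The receptor kinases Axl and Met had differences of 6.56 ± 0.184 and 7.13 ± 0.301, and their levels in each line are not given here. Of 14 partners of ADAM proteins, 8 were higher and 4 lower (10 and 4 with the block). The tetraspanins that accompany Adam10 were split, with Tspan14 higher in 3134 (4.54 ± 0.23), Tspan5 and Tspan17 higher by 0.57 and 0.60, and Tspan15 (-4.30 ± 0.307) and Tspan33 (-2.07 ± 0.448) higher in AtT-20. Of 7 tested ADAMTS-like and matrix-processing genes 6 were higher and 1 lower, and of 13 AP-1 and Ets factors 7 were higher and 4 lower. Activators and other inhibitors were split, 4 higher and 2 lower of 10. Plau, urokinase, which starts the plasmin cascade that activates Mmp precursors, was higher in 3134 (3.04 ± 0.194), and Serpine2, an inhibitor of such proteases, was higher in AtT-20 (-6.32 ± 0.181, limma adjusted p = 1.58e-10).

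Over the mean of 2, 4 and 8 h in 3134, 0 of the 23 members passed without the block (2.43% of all genes did) and 2 with it, Adamts1 and Timp3 (6.55%), and some of these partners passed without it. Plau fell by 1.55 (SE 0.158, limma adjusted p = 0.000191) and its receptor Plaur fell by 0.86 (SE 0.179, limma adjusted p = 0.0253). Furin, the convertase that removes the prodomain of many ADAM and membrane-type Mmp proteins, rose by 1.01 (SE 0.215, limma adjusted p = 0.0285). In the list of activators and inhibitors this made 1 higher and 2 lower of 10 (2 and 3 with the block). Among shed proteins, Kitl, the ligand of Kit, rose by 1.16 (SE 0.188, limma adjusted p = 0.00467), and the chemokine Cx3cl1 and Csf1, a growth factor of macrophages, fell by 0.81 and 0.95 (limma adjusted p = 0.0197 and 0.0332), 1 higher and 2 lower of 19 (3 and 5 with the block). Among matrix substrates, Thbs1, thrombospondin 1, fell by 0.82 (SE 0.153, limma adjusted p = 0.0133) and the basement membrane collagen Col4a1 rose by 0.85 (SE 0.159, limma adjusted p = 0.0137), 1 each of 20 (3 higher and 1 lower with the block). Loxl3, which crosslinks collagen, rose by 1.43 (SE 0.192, limma adjusted p = 0.0012), 1 of 7 in its list.

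No AP-1 or Ets factor of 13 and no ADAM partner of 14 passed over that mean without the block. With it, 1 ADAM partner passed, Lgi1 (0.40 ± 0.178 without the block, limma adjusted p = 0.518, and 0.0387 with it). Lgi1 was far lower in 3134 than in AtT-20 at 0 h (-5.51), and its level in 3134 is not given here. Its pass may therefore lie near background and does not show a change in 3134. Of the factors, 1 was then higher and 4 lower, where 6.55% of all genes passed. AP-1 subunits stood on both sides. Jund was higher (0.47 ± 0.19, limma adjusted p = 0.426 without and 0.0432 with the block). Fosl2 (-1.13 ± 0.279, limma adjusted p = 0.0637 without and 0.000101 with the block) and Jun (-0.69 ± 0.213, adjusted p = 0.177 and 0.00659, limma) were lower. The other lower ones were Ets1 and Elk3 (limma adjusted p = 0.0164 and 0.0489 with the block). The medians of the 6 lists over that mean ran from -0.23 for these factors to 0.10 for the ADAMTS-like genes, against -0.02 over all tested genes. In AtT-20, over the mean of 2 and 4 h, Thbs1 was the 1 gene of the 6 lists that passed without the block (0.181% of all genes did, and 0.766% with it). It fell by 1.47 (SE 0.163, limma adjusted p = 0.0022). At 0 h Thbs1 was higher in 3134 (4.46 ± 0.188), and its level in AtT-20 is not given here. Whether this fall lies near background can therefore not be told. With the block Rhbdf2, a partner of Adam17, passed too (-0.56, limma adjusted p = 0.0372, and 1 without it).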

How the data were processed

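The deposited values, 1 per exon probeset and array, are log2 numbers. The submitters' processing notes name RMA and Affymetrix Expression Console, with the version, settings and build not given in the sources used here. Of 228090 probesets, 207232 had 1 gene symbol in the platform annotation and were used. The medians of the deposited columns differed by run (7.83 to 8.14 and 6.76 to 7.20 in 3134, 7.51 to 7.86 and 6.93 to 7.22 in AtT-20), so the 15 arrays were quantile normalized. The highest correlation of 2 arrays was 0.986, and none was taken for a repeat. All 63 member symbols were current in RefSeq.

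The model, limma's moderated 2-sided test (version 3.58.1), used 8 group means and all 15 arrays, with 7 residual degrees of freedom (5 with the run as a block) and Benjamini-Hochberg adjustment over 9927 genes at 0.05, in R 4.3.3 (data.table, version 1.17.8). The median SE was 0.215 between groups of 2 arrays and 0.264 for AtT-20 at 8 h, where the single array is assumed to vary like the others; the number of arrays limits the precision. Replicates were numbered by the order of serial numbers within a line. Same-run deviations from group means correlated between 0.492 and 0.59 in all 9 pairs of groups of a line. Between groups of different lines they correlated too, between 0.277 and 0.391 in 12 pairs. The runs were taken as paired within a line, and the cause of the shared deviations was not tested. Blocked values stand beside results they change. The script was tested on simulated data.

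Named genes were members called in any comparison, with or without the block, all Timp genes, the members with the highest 0 h level in each line, and up to 4 genes per list by p. Other members, 4 tetraspanins and Rhbdf2 were named after their values were seen. The members and lists were chosen with earlier results of these data known. Alternatives tried were the deposited scale, median-centred arrays, no filter or other filters, the mean over probesets, the run block, arrays of 1 line and leaving out arrays. Protein sequences were not analysed here.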

Additional observations from a re-analysis of the deposited data

Results flagged for a closer look

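A test of the difference between the lines in the mean response at 2 and 4 h passed for 2 members with the run as a block, where 2.79% of all genes passed. Both were tested through their level in 3134 alone, so the values do not show that the lines respond differently. For Adamts1 the response of 3134 minus that of AtT-20 was -1.01 on the log2 scale. Between the first runs of the 2 lines it was -0.83 and between the second runs -1.18. Runs were numbered within each line, so here and for Timp1 these values are not from runs known to be shared. The Adamts1 difference passed with the run as a block (limma adjusted p = 0.0225) and not without it (0.484). Leaving out 1 array at a time, the limma adjusted p with the block lay between 0.0161 (without the first AtT-20 2 h array) and 0.183 (without the second 3134 0 h array). For Timp1 the difference was -0.82, with -0.80 and -0.84 in the runs (limma adjusted p = 0.0209 with the block and 0.308 without it), and from 0.0176 to 0.147 without 1 array. The AtT-20 arrays of both genes lie below the level needed for testing, at 4.12 to 4.97 for Adamts1 and 2.87 to 3.80 for Timp1.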

How the results depend on the processing

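Between the lines at 0 h the count of 18 members was 9 with a filter at the 60th percentile, which tests fewer genes, and 18 on leaving out any array (18 to 19 with the replicate block). With no filter, 23 of 63 members passed, 15 higher and 8 lower in 3134. On the deposited scale without the block, Adam9, Mmp17, Mmp2 and Mmp23 kept their direction and no longer passed (limma adjusted p = 0.068, 0.553, 0.23 and 0.118). That scale moved the median of all genes to 0.221 between the lines, to -0.313 and -0.373 at 4 and 8 h in 3134 and to 0.482 at 8 h in AtT-20. Over time, every count was 0 in the fit without the block as reported, also without any 1 array. With the replicate block, members called in 3134 at 2, 4 and 8 h and over their mean numbered 1, 2, 3 and 2, in AtT-20 over the mean 1, and for the difference of responses 2. With the block the deposited scale gave 1, 3, 4 and 4 in 3134, 0 in AtT-20 and 1 for the difference (Timp1 is lost in both), and median-centred arrays gave 1, 2, 5 and 4 in 3134, 1 at 4 h and 1 over the mean in AtT-20, and 2 for the difference. The mean over probesets gave 1 at 4 h, 8 h and over the mean in 3134 (Timp3), and fitting 3134 arrays alone gave 1 at 8 h (Mmp19). A filter at the 40th percentile of gene values, chosen after seeing the data, gave 1 over the mean in 3134 and, with the block, 1, 3, 4 and 3 there, 1 over the mean in AtT-20 and 2 for the difference. With the block and 1 array left out, also chosen after seeing the data, the ranges were 0 to 1 at 2 and 4 h, 0 to 2 at 8 h and 0 to 3 over the mean in 3134, 0 at each time and 0 to 1 over the mean in AtT-20, and 0 to 2 for the difference. Unequal probesets were called in 1 to 3 members without 1 array. Without the only AtT-20 8 h array, no value can be had for that time. The block changed no other call of a tested member than those printed beside the results. Below the level, with no filter, Adam30, Adam33, Adam4, Mmp10 and Mmp15 passed between the lines only with it (limma adjusted p from 0.00871 to 0.0428). The causes of these shifts were not tested.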

Other observations

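Members below the level needed for testing were also fitted with no filter on low values. Between the lines at 0 h, Adam19 (1.32 ± 0.166), Adamts12 (1.52 ± 0.19) and Adamts5 (1.32 ± 0.259) were higher in 3134, and Adam12 (-1.02 ± 0.223) and Adamts20 (-0.68 ± 0.182) were higher in AtT-20, with limma adjusted p from 4.76e-05 to 0.011 over all genes. Adam19 was lower in 3134 at 8 h (-0.67 ± 0.166, limma adjusted p = 0.113, and 0.0406 with the run as a block), on every treated array and in both runs (-0.69 and -0.65). Its promoter window holds an AP-1 motif at position -131, a match of letters whose part in these values was not tested. Adamts1 and Adamts5, neighbours on chromosome 16 with related substrates, were at 11.27 and 11.87 and at 5.24 and 5.93 in 3134 before hormone, on probesets of their own brightness.

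Timp4 overlaps Syn2, which was at 9.46 in AtT-20 and 5.56 in 3134, while Timp4 was at 4.56 and 5.05, and Timp3 overlaps Syn3, at 5.23 and 6.18.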
